A study of Macaca mulatta with 136 samples.

Results

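The neural retina of the rhesus macaque was compared at a nasal location and in the periphery, with 4 libraries on each side. Each library held the RNA of a 2 mm punch of neural retina from 1 eye, and the right and left eyes of the same 2 adult animals, RM03 and RM04, supplied both locations. The study's methods give ages of 13 and 18 years, without tying them to an animal, and describe the peripheral punch as temporal. The distance of the nasal punch from the fovea or the optic disc is not given in the sources used here. All eyes were postmortem and untreated, and no group carried a genetic change. These 8 libraries belong to a series of 32, in which neural retina and the underlying RPE/choroid (retinal pigment epithelium with the vascular coat behind it) were each sampled at the fovea, perimacula, nasal location and periphery. Replicates 1 and 2 are the right and left eyes of RM03, and replicates 3 and 4 those of RM04, so 4 eyes from 2 animals stand behind every value, and p-values describe the spread between these eyes.

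The vertebrate retina is patterned along its nasal-temporal axis early in development, when the transcription factor FOXD1 marks the temporal side. In primates a gradient of cell density is laid over this axis: ganglion cells, which carry signals to the brain, and cones thin out away from the fovea, whereas rods dominate further out. Mueller glia span the whole thickness of the tissue at every location. In whole tissue, fewer cells of a type and less RNA per cell cannot be told apart, and a share of RNA gained by one cell type is lost by the others.

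The libraries held 57012730 to 64466280 estimated counts at the nasal location and 68510797 to 78574055 in the periphery. Values below are CPM, estimated counts scaled to a common library size with TMM, and fold changes are log2 values of nasal minus periphery with their SE. A gene was called when edgeR's quasi-likelihood test, with the animal as covariate, gave a Benjamini-Hochberg adjusted p under 0.05 over all genes tested. Nasal, perimacular and foveal libraries were sequenced on the same 2 flow cells and the peripheral libraries on another flow cell of their own, in both tissues, so location and flow cell cannot be told apart in this comparison. Values at the perimacula, which shares flow cells with the nasal location, and values of the same pair of locations in RPE/choroid are therefore given beside the main results.

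Of 15486 genes tested, 7534 (48.7%) differed between nasal and peripheral retina. They were divided evenly, with 3793 (24.5%) higher in nasal and 3741 (24.2%) higher in periphery. These shares are the background against which each gene list below is counted. Most changes were small: the median absolute log2 fold change over all genes was 0.34 with a median SE of 0.13, and 1388 genes (8.96%) were both called and changed by more than 1 on the log2 scale, 613 toward nasal and 775 toward periphery. Against perimacular retina, 231 genes (1.49%) differed from nasal retina, 162 of them higher in nasal. Over the 1000 most variable genes, nasal and peripheral libraries of the same eye lay 1.85 apart on average (root mean square difference of log2 CPM), whereas fellow eyes lay 0.657 to 0.738 apart at the nasal location and 1.08 to 1.13 in the periphery. Libraries of different animals lay 1.85 apart on average at the nasal location and 1.97 in the periphery.

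FOXD1, the transcription factor of the temporal side, was higher in periphery. Nasal retina held 8, 4, 3 and 2 counts, whereas the peripheral libraries held 108, 52, 60 and 50. In CPM this was 0.0728 ± 0.0481 in nasal and 0.898 ± 0.339 in periphery (SD, n = 4 each), a log2 fold change of -3.62 ± 0.54 (adjusted p = 8.03e-05, edgeR). The 2 groups did not overlap. FOXD1 was higher still in the perimacula at 4.79 ± 2.44 CPM and in the fovea at 5.95 ± 2.71 CPM, so the nasal punch had the lowest level of the 4 locations. Nasal and perimacula differed by -6.07 ± 0.53 on the log2 scale (adjusted p = 0.000152). RPE/choroid also had less FOXD1 in nasal, but by a smaller margin, at 3.68 against 8.35 CPM (log2 -1.16, adjusted p = 0.000941), and the difference between the tissues' changes was called (adjusted p = 0.00306).

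The axis list held 10 tested genes, of which 6 were higher in nasal and 1, FOXD1, was higher in periphery. Among all genes these shares were 24.5% and 24.2%. EPHA6, an Eph receptor that guides axons, stood at 4.01, 3.19, 3.68 and 3.21 CPM in nasal and 2.18, 1.27, 1.54 and 1.24 in periphery (log2 1.18 ± 0.23, adjusted p = 0.000749), with no overlap. EPHA4 (0.82 ± 0.17), EPHA7 (0.65 ± 0.14) and the ligand gene EFNA5 (0.78 ± 0.17) were also called higher in nasal, as was EPHA5 (0.59, adjusted p = 0.0309), whose call was lost when some libraries were left out. The calls of EPHA7 and EFNA5 were lost in RM04 alone (adjusted p = 0.132 and 0.114). EPHA3 was not called (-0.09). EPHA6 and EPHA4 had their highest mean in the fovea, at 16.7 and 116 CPM, against 3.52 and 42.6 in nasal. Against the perimacula, 1 of the 10 axis genes was called higher in nasal and 1, FOXD1, lower. EPHA5 and EPHA6 were not called there by edgeR. DESeq2 called both lower in nasal than in the perimacula (log2 -0.79 and -0.83, adjusted p = 0.00979 and 0.0128). HMX1, a nasal homeobox factor, was not called: nasal libraries stood at 2.83, 3.65, 1.89 and 2.33 CPM and 3 peripheral libraries at 0.351 to 0.967, but the fourth peripheral library reached 4.12. Without that library the log2 difference was 1.91 (adjusted p = 0.035), but the library was singled out by its value, so this is not a separate result. Perimacular libraries also varied, at 0.582, 3.56, 2.55 and 0.582 CPM, and HMX1 was not called between nasal and perimacula (log2 0.56, adjusted p = 0.765). PAX2, a factor of astrocytes and the optic nerve head, was 1.24, 1.75, 1.89 and 2.32 CPM in nasal and 0.0146 to 0.546 in periphery, 3.04 ± 0.65 on the log2 scale (adjusted p = 0.00136), and it was also called against the perimacula (log2 2.97, adjusted p = 0.0404), though not with the eye as replicate block (adjusted p = 0.0635) or with any 1 eye left out (adjusted p from 0.054 to 0.233).

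**Figure D1:**
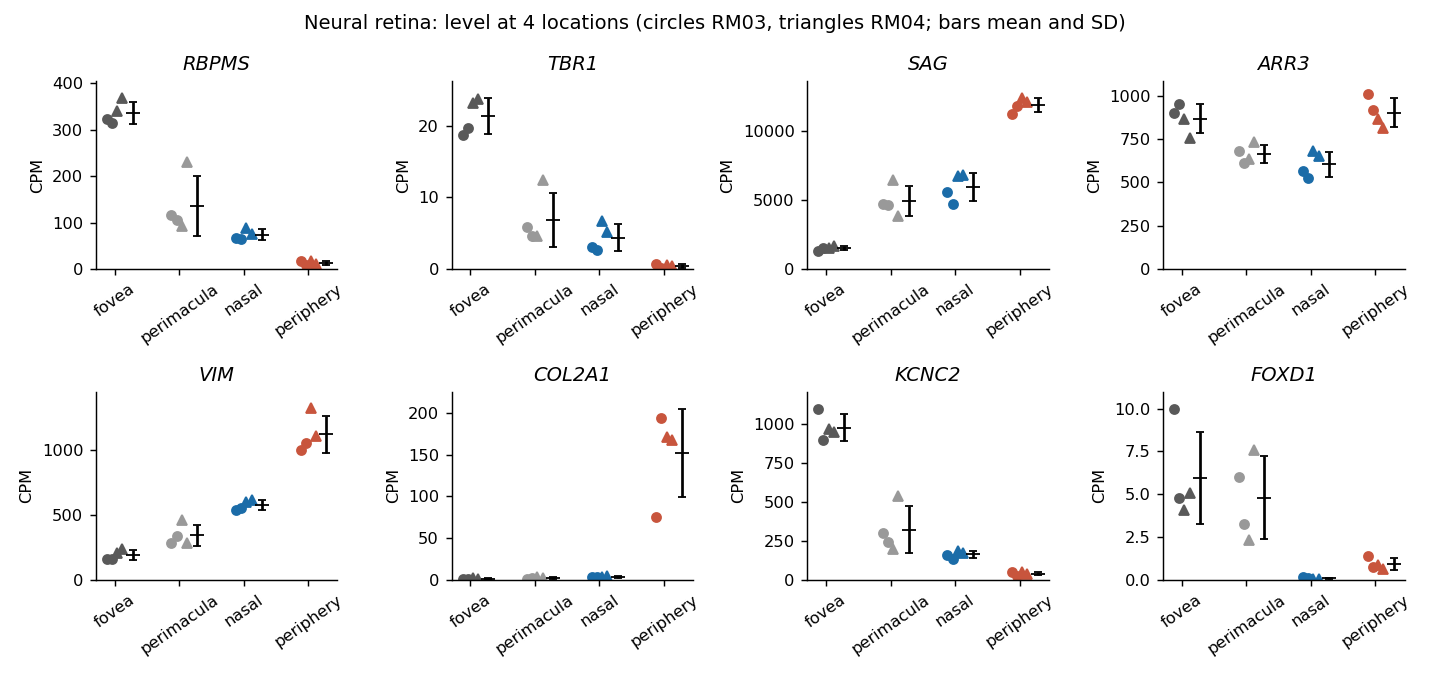
Each panel plots the CPM of a gene (linear axis from 0) in the 16 neural retina libraries by location, with circles for RM03, triangles for RM04 and bars for the mean and SD of 4 libraries. FOXD1 is lowest in the nasal libraries, and COL2A1 is high in the periphery alone. In the order plotted (fovea, perimacula, nasal, periphery), the means of RBPMS, TBR1 and KCNC2 fall and those of SAG and VIM rise.

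Retinal ganglion cell genes were higher in nasal almost throughout. Of 20 listed genes 18 were tested, 17 were called higher in nasal and none was called higher in periphery, against 24.5% of all genes tested being called higher in nasal. The list's median log2 fold change was 1.51, while that of all genes was 0.01. In 17 of the 18 genes the CPM of the groups did not overlap, which held for 35.1% of all genes. The exception was ISL2, a ganglion cell homeobox gene, at 1.90 ± 0.34 CPM in nasal and 1.97 ± 0.69 in periphery.

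RBPMS encodes an RNA-binding protein used as a pan-ganglion-cell marker. It measured 65.9, 65.5, 89.0 and 75.5 CPM in nasal retina and 17.3, 7.31, 15.98 and 10.3 in periphery. Every nasal library stood above every peripheral library (log2 2.53 ± 0.28, adjusted p = 5.34e-06). The transcription factor POU4F2, which ganglion cells need to differentiate, stood at 18.8, 20.2, 25.4 and 20.1 CPM in nasal and 6.31, 2.16, 4.44 and 3.72 in periphery (log2 2.33 ± 0.31, adjusted p = 2.84e-05). TBR1, a factor of a subset of ganglion cells, had the largest ratio of the list: 3.09, 2.60, 6.63 and 5.15 CPM against 0.629, 0.102, 0.491 and 0.364 (log2 3.38 ± 0.39, adjusted p = 8.59e-06). EBF3, another transcription factor, stood at 15.8 ± 2.07 against 3.22 ± 1.35 CPM (log2 2.31 ± 0.23).

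Structural genes of ganglion cells were higher in nasal too. NEFM, the medium neurofilament subunit, was 656, 591, 624 and 541 CPM in nasal and 280, 147, 236 and 167 in periphery (log2 1.54 ± 0.23, adjusted p = 7.63e-05). NEFL (1.67 ± 0.22), NEFH (1.15 ± 0.26) and SNCG (0.82 ± 0.25) were called as well, the last not without replicate 4 (adjusted p = 0.0631). The vesicular glutamate transporter gene SLC17A6 was 93.4 ± 13.3 CPM in nasal and 24.4 ± 8.32 in periphery (log2 1.93 ± 0.26), and the surface glycoprotein gene THY1 173 ± 18.4 and 62.2 ± 24.9 (log2 1.48 ± 0.26). The second peripheral library, the left eye of RM03, was the lowest of its group for RBPMS, POU4F2, TBR1, SLC17A6, NEFM and THY1. In RPE/choroid NEFM and SLC17A6 were not called, while RBPMS was higher in nasal there too, at 167 against 79.1 CPM (log2 1.08, adjusted p = 4.01e-06).

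The mean of RBPMS was highest in the fovea and lowest in the periphery. RBPMS averaged 337 CPM in the fovea, 136 ± 64.2 in the perimacula, 74.0 ± 11.03 in nasal and 12.7 ± 4.72 in periphery. The difference between nasal and perimacula did not pass the test (log2 -0.87, adjusted p = 0.108), although DESeq2 called it (adjusted p = 0.0198). For NEFM, nasal was below perimacula (log2 -1.14, adjusted p = 0.0254), as it was for NEFL (adjusted p = 0.035, or 0.0503 with the replicate block) and NEFH (adjusted p = 0.041). These 3 calls were lost with any 1 eye left out, with adjusted p from 0.0531 to 0.251 for NEFM, 0.0717 to 0.37 for NEFL and 0.0653 to 0.403 for NEFH.

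Ion channel genes of ganglion cells and inner retina were mostly higher in nasal. Of 18 tested, 14 were called higher in nasal, against 24.5% of all genes, and none higher in periphery, with a median of 0.99. KCNC2, a Kv3 potassium channel subunit of fast-spiking neurons, measured 155, 135, 186 and 168 CPM in nasal and 48.5, 25.4, 48.4 and 33.4 in periphery (log2 2.04 ± 0.26, adjusted p = 2.31e-05). The sodium channel gene SCN1A (1.31 ± 0.19) and the A-type potassium channel gene KCND2 (1.36 ± 0.18) were called too. The groups did not overlap in 13 of the 18, which held for 35.1% of all genes.

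The 12 genes with the largest called nasal excess, counting genes whose mean reached 3 log2 CPM and whose direction was shared by 4 of 4 eyes, were CPLX2, PKM, RBPMS, POU4F2, SYT2, ARHGAP21, OPTN, ISLR2, UBALD2, ELAVL2, KCNC2 and UNC13C. Several encode parts of the synaptic release machinery. CPLX2, a complexin that clamps vesicle fusion, was 24.2, 18.8, 37.6 and 29.5 CPM in nasal and 2.59, 0.935, 6.99 and 8.02 in periphery (log2 2.77 ± 0.39, adjusted p = 5.00e-05). SYT2, a fast calcium sensor of release, stood at 37.2 ± 3.78 against 8.31 ± 3.10 CPM (log2 2.16 ± 0.25).

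UNC13C, a vesicle priming factor, was 102, 102, 108 and 114 CPM in nasal and 25.2, 24.3, 34.4 and 21.2 in periphery (log2 2.02 ± 0.13, adjusted p = 4.67e-08). Its nasal mean of 107 CPM was above those of the fovea, 88.3, and the perimacula, 58.3, whereas CPLX2, SYT2, KCNC2 and ELAVL2 were highest in the fovea. ELAVL2, a neuronal RNA-binding protein, and ISLR2, a membrane protein of growing axons, changed by 2.08 ± 0.26 and 2.10 ± 0.20. OPTN, the autophagy receptor optineurin, was 57.5 ± 10.4 CPM in nasal and 13.2 ± 1.64 in periphery (log2 2.13 ± 0.29). In none of these 12 genes did the groups overlap. The genes were picked for large called changes with a shared direction in these same libraries, so this separation is not a separate result.

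**Figure D2:**
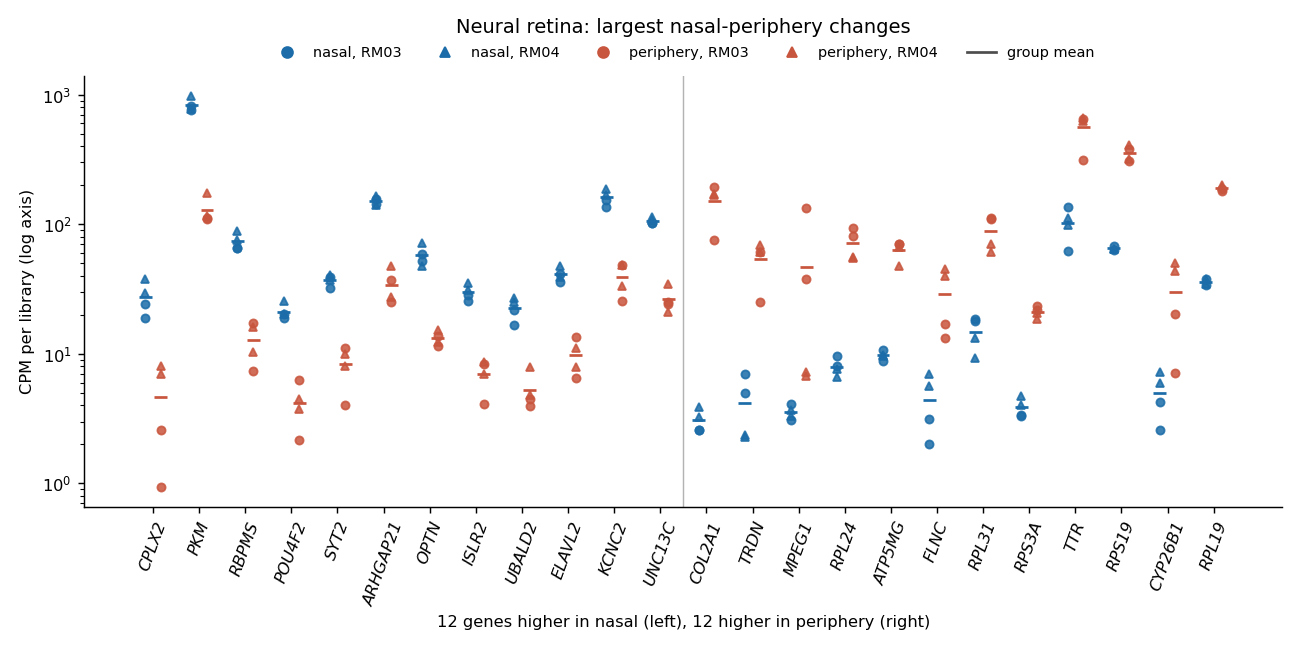
The plot shows CPM per library on a log axis for the 12 genes with the largest called change in each direction, with blue for nasal, red for periphery, circles for RM03, triangles for RM04 and short lines for group means. The groups are apart for every gene except CYP26B1, whose lowest peripheral library (7.17 CPM) lies just under its highest nasal library (7.18 CPM). The genes were picked by their change in these same libraries, so the separation is not a separate result.

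Horizontal and amacrine cell genes were also higher in nasal. Of 6 tested horizontal cell genes 5 were higher in nasal, against 24.5% of all genes, and none higher in periphery (median 1.04). ONECUT1, a horizontal cell transcription factor, was 9.80, 14.6, 19.5 and 16.97 CPM in nasal and 4.03, 1.90, 5.65 and 8.46 in periphery (log2 1.66 ± 0.28, adjusted p = 0.000238). CALB1, the calcium buffer calbindin, changed by 0.59 ± 0.09 (345 ± 25.1 against 231 ± 40.0 CPM). ONECUT1 levels in nasal, perimacula and fovea were 15.2, 14.1 and 19.8 CPM, and neither the perimacula nor the fovea was called against nasal (adjusted p = 0.96 and 0.266).

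Of 14 amacrine cell genes 9 were called higher in nasal, against 24.5% of all genes, and none higher in periphery (median 0.59). The count of 9 ranged from 4 to 11 over the alternatives. The groups did not overlap in 3 of the 14, against 35.1% of all genes. TFAP2A, an amacrine transcription factor, measured 59.1, 52.9, 57.3 and 72.7 CPM in nasal and 26.2, 20.95, 39.0 and 30.8 in periphery (log2 1.07 ± 0.12, adjusted p = 4.97e-06). TFAP2B changed by 0.76 ± 0.11. VIP, a neuropeptide of an amacrine subset, had the largest value of the list (log2 2.67 ± 0.81, adjusted p = 0.0132), but its nasal libraries were 2.35, 1.46, 22.2 and 59.1 CPM, against 0.558 to 1.88 in periphery. The high values were those of RM04, the groups overlapped, and in RM03 alone the change was 0.67 (adjusted p = 0.187).

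Of 14 bipolar cell genes 5 were called higher in nasal, 1 was called higher in periphery and 8 were not called (median 0.30). Among all genes 24.5% were called higher in nasal and 24.2% higher in periphery. The count higher in nasal was 3 without replicate 1 and 8 without periphery replicate 3. GRIK1, the kainate receptor subunit of OFF bipolar cells, was 243, 219, 266 and 246 CPM in nasal and 121, 106, 163 and 122 in periphery (log2 0.93 ± 0.11, adjusted p = 8.55e-06). GRM6, the glutamate receptor of ON bipolar cells, changed by 0.53 ± 0.17 (122 ± 17.99 against 84.5 ± 18.1 CPM, adjusted p = 0.0181), and its call was lost without the first eye (adjusted p = 0.073).

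**Figure D3:**
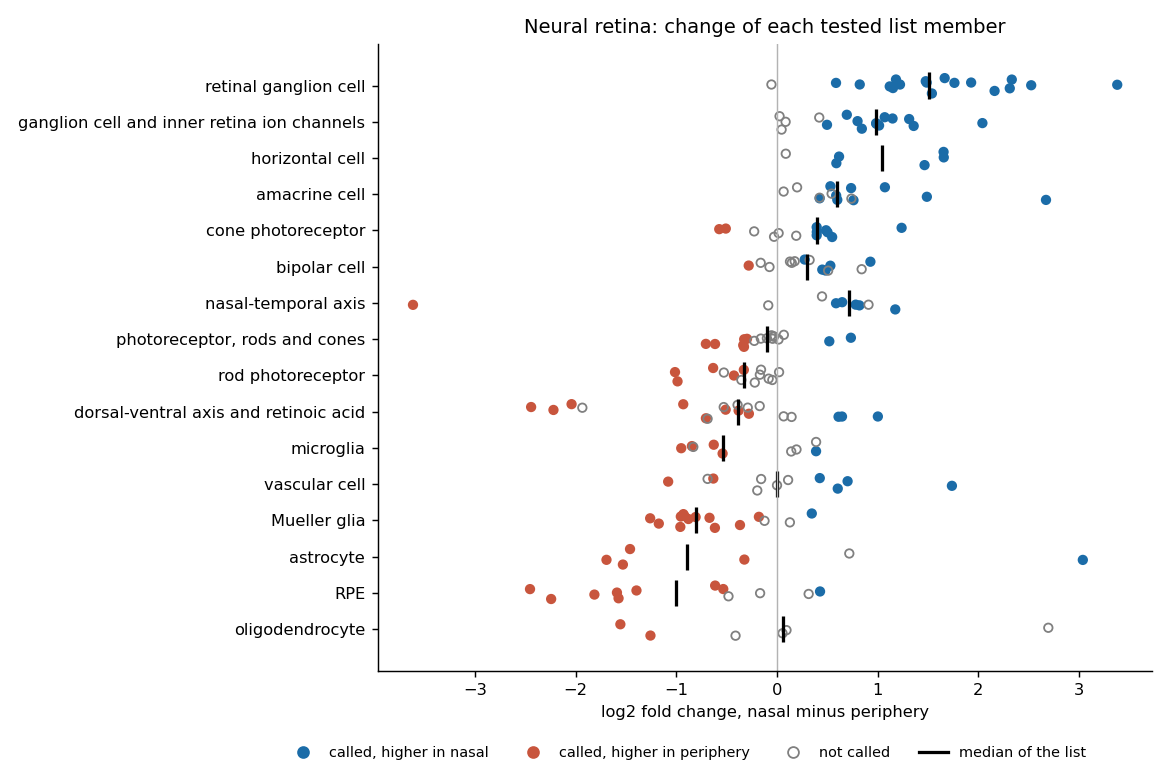
Each point is a tested gene of a list, placed by its log2 fold change of nasal minus periphery, with filled points for called genes (blue toward nasal, red toward periphery), open points for genes not called and a black line for the list's median. Ganglion cell and ion channel genes lie almost wholly to the right, and Mueller glia and RPE genes mostly to the left. Members not reported here are left out of the points but counted in the medians.

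Rod genes that differed were all higher in periphery, while cone genes differed in both directions. Of 13 rod genes tested, 5 were called higher in periphery and none higher in nasal (median -0.33), against 24.2% of all genes tested being called higher in periphery. SAG, rod arrestin, which ends the light response, measured 5560, 4664, 6693 and 6769 CPM in nasal and 11220, 11810, 12390 and 12050 in periphery (log2 -1.01 ± 0.13, adjusted p = 1.96e-05). GNGT1, the rod transducin gamma subunit, was 1526, 1297, 1154 and 1274 CPM in nasal and 2861, 3556, 2158 and 2056 in periphery (log2 -0.99 ± 0.11, adjusted p = 5.47e-06). Both genes kept the groups apart.

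CNGB1 (-0.63 ± 0.12), PDE6B (-0.43 ± 0.14) and CNGA1 (-0.33 ± 0.10), parts of the rod channel and phosphodiesterase, were the other rod genes called. The calls of PDE6B and CNGA1 were lost without the left eye of RM03 (adjusted p = 0.0954 and 0.148), and that of PDE6B also without the right (adjusted p = 0.0687). In RM04 alone the calls of CNGB1, PDE6B and CNGA1 were lost (adjusted p = 0.1235, 0.347 and 0.367). The rod determinant NRL stood at 1300, 1166, 1448 and 1506 CPM in nasal and 1505, 1375, 1583 and 1850 in periphery. It was lower in nasal in 4 of 4 eyes, but the difference was not called in the fit of all locations (log2 -0.22 ± 0.16, adjusted p = 0.268). With only the 8 nasal and peripheral libraries fitted, NRL was called (-0.24, adjusted p = 0.0292), as were NR2E3 and RCVRN, and the count of rod genes higher in periphery was 8. In the fit of all locations the count of 5 was 3 without replicate 2.

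Of 13 cone genes tested, 7 were called higher in nasal and 2 higher in periphery (median 0.40), against 24.5% and 24.2% of all genes. The count higher in nasal was 4 without replicate 1, 3 or 4. The 2 higher in periphery were ARR3, cone arrestin, at 565, 527, 681 and 653 CPM in nasal and 1011, 917, 867 and 815 in periphery (log2 -0.57 ± 0.10, adjusted p = 0.000295), and OPN1LW at 241 ± 29.8 against 344 ± 64.1 (log2 -0.51 ± 0.12). OPN1LW cannot be told from the near-identical middle-wavelength opsin in short reads. Neither call held in RM04 alone (adjusted p = 0.0907 and 0.248). SLC24A2, the cone sodium-calcium exchanger, moved the other way: 83.5, 74.8, 99.9 and 104 CPM in nasal and 37.7, 37.4, 40.3 and 37.1 in periphery (log2 1.24 ± 0.13, adjusted p = 4.76e-06). CNGA3, the cone channel subunit, changed by 0.55 ± 0.09.

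Among 17 tested genes shared by rods and cones, 2 were higher in nasal and 6 in periphery, against 24.5% and 24.2% of all genes. The count in periphery was 2 without replicate 2 and 3 without nasal replicate 1. The 2 higher in nasal were the homeobox factors OTX2 (479 ± 47.4 against 290 ± 55.1 CPM, log2 0.73 ± 0.09) and CRX (170 ± 31.6 against 116 ± 4.60 CPM, log2 0.52 ± 0.13). The CRX call was lost in RM04 alone (adjusted p = 0.1195). PDC, phosducin, and GUCA1A, a guanylate cyclase activator, were called higher in periphery (log2 -0.71 ± 0.09 and -0.61 ± 0.10).

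Mueller glia genes were mostly higher in periphery: 12 of 15 were called higher in periphery, against 24.2% of all genes. SOX9 alone, 1 gene, was called higher in nasal (median of the list -0.81). Its call was lost without replicate 1 (adjusted p = 0.0725) and in RM04 alone (0.0806). VIM, the intermediate filament vimentin, was 537, 553, 597 and 615 CPM in nasal and 1000, 1056, 1325 and 1110 in periphery (log2 -0.96 ± 0.13, adjusted p = 2.54e-05). RLBP1, the retinaldehyde-binding protein of the visual cycle, was 813, 816, 700 and 668 against 1287, 1319, 1621 and 1418 CPM (log2 -0.93 ± 0.17, adjusted p = 0.000359). Neither gene's groups overlapped.

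GLUL, glutamine synthetase, changed by -0.88 ± 0.11, the water channel gene AQP4 by -0.81 ± 0.16, the small heat shock protein gene CRYAB by -1.26 ± 0.12 and the transferrin gene TF by -1.17 ± 0.20. KCNJ10, the potassium channel of Mueller cells, was not called (186 ± 11.2 against 170 ± 19.3 CPM, log2 0.13 ± 0.07). Against the perimacula 6 of the 15 genes were called higher in nasal, as were 1.05% of all genes, among them VIM (0.76, adjusted p = 0.00973), CRYAB (0.70) and TF (1.23). Each of these 3 calls was lost without replicate 1 or without replicate 2 (adjusted p from 0.0797 to 0.147), and those of CRYAB and TF also without replicate 4 (0.0926 and 0.055). Summed over the 15 genes, the level was 11080 to 11780 CPM in nasal libraries and 18670 to 26910 in periphery.

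Of 6 astrocyte genes 4 were called higher in periphery and 1 higher in nasal (median -0.89), against 24.2% and 24.5% of all genes. GJA1, the gap junction protein connexin 43, was 11.48, 10.0, 15.1 and 18.6 CPM in nasal and 22.2, 51.2, 38.9 and 63.3 in periphery (log2 -1.69 ± 0.26, adjusted p = 9.23e-05), S100B changed by -1.53 ± 0.18, ALDH1L1 by -1.46 ± 0.17, and PAX2 was higher in nasal as given above. GFAP, the astrocyte and reactive glia filament, differed between the animals: nasal libraries of RM03 held 102 and 163 CPM and those of RM04 14.2 and 14.3, whereas the peripheral libraries held 42.8, 25.1, 32.6 and 23.2. Nasal was above periphery in both eyes of RM03 (log2 1.94 in RM03 alone, adjusted p = 0.00276) and below it in both eyes of RM04 (log2 -0.94 in RM04 alone, adjusted p = 0.015), and no difference was called over the 4 eyes (0.72 ± 0.48, adjusted p = 0.23).

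Of 19 tested genes of the dorsal-ventral axis and retinoic acid, 8 were called higher in periphery, against 24.2% of all genes. TBX2, TBX3 and NR2F2, 3 genes, were called higher in nasal, against 24.5%. The TBX3 call was lost without replicate 4 (adjusted p = 0.0639) and in RM04 alone (0.2225), and that of NR2F2 in RM03 alone (0.0998). The count higher in periphery was 4 without replicate 3. ALDH1A3, which makes retinoic acid, was 5.28, 4.17, 8.47 and 7.86 CPM in nasal and 12.2, 43.3, 18.3 and 29.4 in periphery (log2 -2.04 ± 0.32, adjusted p = 0.000138). The same gene changed by -1.86 in RPE/choroid (adjusted p = 0.000293). ALDH1A2, another synthesis enzyme, was 0.865 ± 0.363 against 5.35 ± 4.77 CPM (log2 -2.22 ± 0.42), and its peripheral level was 1.21 and 1.34 CPM in RM03 and 10.4 and 8.45 in RM04. In RM03 alone its change was -0.96 (adjusted p = 0.0802).

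CYP26B1, which breaks retinoic acid down, was 2.56, 4.27, 5.93 and 7.18 CPM in nasal and 7.17, 20.2, 43.4 and 50.0 in periphery (log2 -2.44 ± 0.42, adjusted p = 0.000278). It was lower at the perimacula (1.41 CPM) and lowest at the fovea (0.145 CPM), where the difference from nasal was called (log2 5.12, adjusted p = 6.13e-06), while perimacula and nasal did not pass the test (adjusted p = 0.0539), although DESeq2 called the difference (adjusted p = 0.014), as did edgeR without the filter (adjusted p = 0.0489). TBX2, a dorsal T-box factor, was 16.9 ± 1.52 against 8.502 ± 1.93 CPM (log2 1.00 ± 0.12). TBX5, another dorsal factor, was not called (-1.93 ± 1.57), with 1 peripheral library at 3.77 CPM, the others at 0 to 0.0485 and nasal libraries at 0.053 to 1.02. Without that library nasal was higher (log2 4.28, adjusted p = 0.00668), but the library was singled out by its value, so this is not a separate result.

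COL2A1, the type II collagen of cartilage and vitreous, showed the largest called peripheral excess among genes of at least 3 log2 CPM. It measured 2.56, 2.57, 3.28 and 3.90 CPM in nasal retina and 75.2, 194, 172 and 169 in periphery (log2 -5.64 ± 0.27, adjusted p = 3.45e-09). Perimacula and fovea were at 1.995 ± 0.77 and 1.25 ± 0.43 CPM, so only the periphery was high. The same gene changed by -5.69 ± 0.93 in RPE/choroid, from 14.5 CPM in periphery to 0.261 in nasal, and the difference between the tissues' changes was not called (adjusted p = 0.979).

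TRDN, triadin, known from the calcium release complex of muscle, was 5.02, 7.04, 2.26 and 2.38 CPM in nasal and 25.2, 61.2, 69.7 and 60.7 in periphery (log2 -3.84 ± 0.42, adjusted p = 4.97e-06). FLNC, the actin cross-linker filamin C, was 1.996, 3.14, 5.63 and 6.97 against 13.2, 16.9, 40.0 and 45.4 CPM (log2 -2.66 ± 0.32). MPEG1, a pore-forming protein of macrophages, stood at 3.09 to 4.10 CPM in nasal and at 37.6, 134, 7.29 and 6.74 in periphery (log2 -3.35 ± 0.72, adjusted p = 0.00145). Its high values came from the 2 eyes of RM03, and the symbol is carried by 2 identifiers, so its counts are uncertain. The remaining genes of the peripheral 12 were TTR and CYP26B1 and the ribosomal protein and ATP synthase genes described below.

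Markers of RPE, which is peeled from the retina at dissection, were also higher in the peripheral retina punches. Of 12 tested, 8 were called higher in periphery, against 24.2% of all genes, and 1, MITF, higher in nasal (median -1.01). The MITF call was lost with any 1 eye left out (adjusted p from 0.0532 to 0.17). Summed, the 12 markers made up 525 to 762 CPM in nasal libraries and 1016 to 1844 in periphery. TTR, the thyroid hormone carrier made by RPE, was 137, 61.7, 99.2 and 112 CPM in nasal and 315, 651, 657 and 624 in periphery (log2 -2.45 ± 0.29, adjusted p = 1.16e-05), and the pigment gene PMEL was 3.65 ± 0.83 against 17.3 ± 12.7 (log2 -2.24 ± 0.42). TYRP1 (-1.59 ± 0.15) and BEST1 (-1.57 ± 0.25) were called as well. RPE65, the visual cycle isomerase that defines RPE, did not differ by the test: 193, 117, 117 and 123 CPM against 121, 219, 118 and 158 (log2 -0.17 ± 0.25, adjusted p = 0.614). In RPE/choroid RPE65 was at 6559 and 3299 CPM and TTR at 3219 and 5277 CPM, nasal and periphery. The part of RPE in the retinal results was not tested.

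Markers of other cell types that a punch can hold were counted as well, beside 24.5% of all genes called higher in nasal and 24.2% in periphery. Of 9 microglia genes 4 were higher in periphery and 1 in nasal (2 and 0 without replicate 1 or 3, and 2 and 1 without replicate 4), with C1QB, a complement subunit, at 5.78 ± 1.11 against 11.2 ± 1.36 CPM (log2 -0.95 ± 0.17), and the summed level was 50.3 to 66.2 CPM in nasal and 57.9 to 67.2 in periphery. Of 11 vascular genes 4 were higher in nasal, led by the smooth muscle myosin gene MYH11 (17.1 ± 3.87 against 5.11 ± 1.57 CPM, log2 1.74 ± 0.21), and 2 in periphery, the endothelial gene VWF (log2 -1.08 ± 0.15) and TAGLN. Of 7 oligodendrocyte genes 1 was higher in nasal and 2 were higher in periphery, and the summed level was 81.6 to 111.6 CPM in nasal and 65.2 to 79.5 in periphery. No blood gene passed the filter on low counts.

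**Figure D4:**
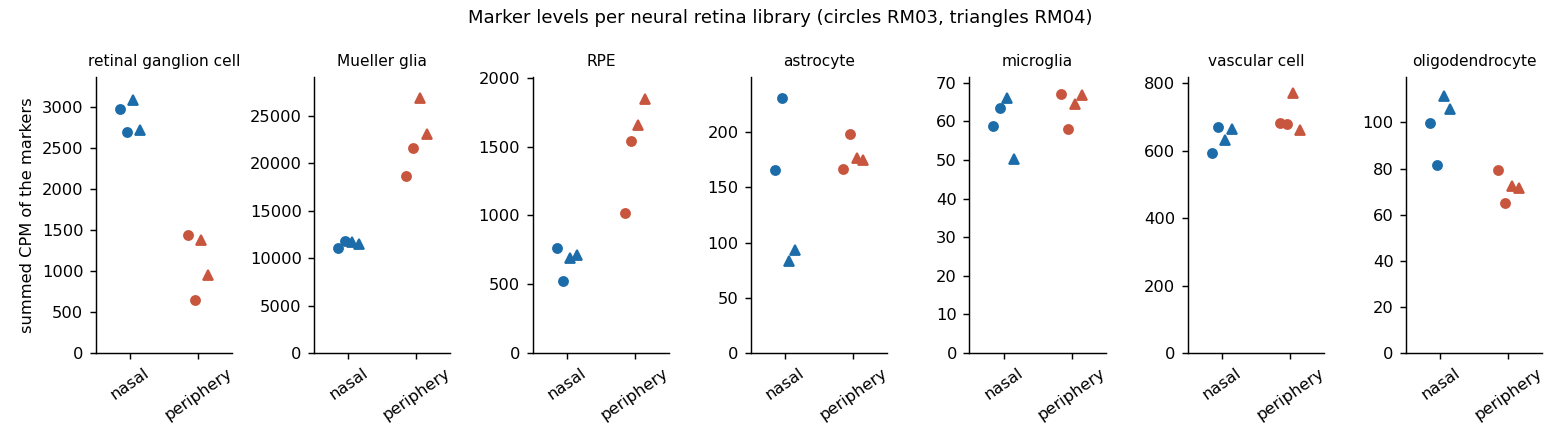
Each panel gives, for each of the 4 nasal (blue) and 4 peripheral (red) libraries, the summed CPM of a list of cell type markers on a linear axis from 0, with circles for RM03 and triangles for RM04. Ganglion cell markers (2703 to 3085 against 647 to 1445 CPM) and Mueller and RPE markers separate the locations in opposite directions, whereas astrocyte, microglia and vascular sums overlap.

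Ribosomal protein genes were mostly lower in nasal, as were most genes of the respiratory chain. With the most abundant identifier of each symbol, 72 of 80 tested ribosomal protein genes were called higher in periphery and none higher in nasal (median -1.10). Over all 151 identifiers of these symbols, 116 were higher in periphery, 2 in nasal and 33 were not called, from -4.72 to 5.72. Of 75 nuclear OXPHOS genes (subunits of the respiratory chain and ATP synthase) 47 were higher in periphery and 4 in nasal (median -0.56). Of all genes tested, 24.2% were called higher in periphery and 24.5% in nasal. RPL24, RPL31, RPS3A, RPS19, RPL19 and ATP5MG were among the 12 largest peripheral changes, and each of these symbols is carried by 3 to 9 identifiers whose reads can be split between near-identical copies. The changes of RPL24 (-3.14), RPL31 (-2.57) and RPS3A (-2.46) belonged to less abundant identifiers. Among the 80 genes counted above the lowest value was -2.45, that of RPS19. Among the 8 ribosomal protein symbols with 1 identifier, 7 were higher in periphery (median -1.05), such as RPL10 at 52.3, 49.2, 54.2 and 55.8 CPM in nasal and 166, 152, 183 and 149 in periphery (log2 -1.62 ± 0.07, adjusted p = 2.44e-09). RPL28 was not called (68.3 ± 20.3 against 72.1 ± 8.55 CPM).

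In RPE/choroid 73 of 79 tested ribosomal protein genes were higher in periphery and none in nasal (median -0.68), against 22.8% of all genes called higher in periphery there. The change differed between the tissues for 43 of 80, with a negative interaction for each and a negative call for 11.3% of all genes. RPS19, for example, changed by -2.45 in retina and -1.30 in RPE/choroid. RPL10, with -1.62 and -1.40, had no called difference between tissues (adjusted p = 0.0629). Between nasal and perimacula none of the 80 was called. Location and flow cell cannot be told apart for these genes, in either tissue.

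Glycolysis was divided, with 8 of 21 tested genes higher in nasal and 7 in periphery, against 24.5% and 24.2% of all genes. The 7 fell to 4 without replicate 1, 2 or 3. PKM, pyruvate kinase, was 818, 768, 977 and 774 CPM in nasal and 112, 110, 175 and 116 in periphery (log2 2.71 ± 0.14, adjusted p = 5.52e-09), but it has 4 identifiers, and its change in RPE/choroid was 2.66 ± 0.11. ARHGAP21, a GTPase regulator with 2 identifiers, likewise changed by 2.15 in retina and 2.28 in RPE/choroid. PFKP, a phosphofructokinase with 2 identifiers, was higher in nasal by 1.23 ± 0.13 on the log2 scale (349 ± 41.8 against 149 ± 34.8 CPM), and ENO1, enolase, was lower (789 ± 19.5 against 1729 ± 259, log2 -1.13 ± 0.08).

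Of 14 immediate early genes 4 were higher in nasal and 1 in periphery, against 24.5% and 24.2% of all genes, and the 4 fell to 2, 0 and 1 without replicates 2, 3 and 4. Of 9 integrated stress response genes 2 were higher in nasal and 4 in periphery. CHAC1, a glutathione-degrading stress gene, was 11.6, 13.9, 14.3 and 12.2 CPM in nasal and 2.81, 0.979, 2.13 and 6.18 in periphery (log2 2.15 ± 0.46, adjusted p = 0.00144), whereas DDIT3, the transcription factor CHOP, was 16.4 ± 1.51 against 37.7 ± 2.83 (log2 -1.20 ± 0.11). CHAC1 was higher in the perimacula, 20.2 CPM, and the fovea, 74.1 CPM.

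In RPE/choroid of the same eyes, 7038 of 15789 genes (44.6%) differed between nasal and periphery. Of the 14935 genes tested in both tissues, 3830 were called in both in the same direction, 52.1% of the retinal calls and 55.8% of the RPE/choroid calls, and 347 were called in opposite directions. Across these genes the retinal and RPE/choroid changes had a Pearson r of 0.42 and a Spearman coefficient of 0.48. The comparisons share no library, but they share eyes and flow cells, and genes are not independent replicates. The interaction of location and tissue was called for 3215 of 16382 genes (19.6%), and for 25.8% of the retinal calls among the 14935.

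TRDN and FLNC changed in opposite directions in the 2 tissues. TRDN rose from 68.6 CPM in peripheral to 179 in nasal RPE/choroid (log2 1.21 ± 0.19), opposite to its retinal change, for an interaction of -5.05 ± 0.46 (adjusted p = 2.35e-07). FLNC changed by 1.02 in RPE/choroid, with an interaction of -3.70. CA12, a carbonic anhydrase, was 19.4, 21.1, 21.8 and 20.5 CPM in nasal retina and 28.3, 45.1, 108 and 91.3 in peripheral retina (log2 -1.61 ± 0.38, adjusted p = 0.00257). It changed by 1.33 in RPE/choroid, and its retinal call was lost in RM03 alone (adjusted p = 0.102).

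Among ganglion cell genes, 8 of 18 had an interaction called positive, against 8.28% of all genes, and 1, ISL2, had one called negative. The positive ones included RBPMS (interaction 1.43 ± 0.31, adjusted p = 0.00198) and TBR1 (4.27 ± 1.35, adjusted p = 0.0273). In RPE/choroid TBR1 was at only 0.032 CPM in nasal and 0.065 ± 0.11 in periphery, and its change there was not called (adjusted p = 0.66). Among genes with a mean of 3 log2 CPM or more over both tissues, the 5 largest positive interactions included those of PRX, GRIA2 and RELN. PRX, a gene of peripheral myelin, was not called in retina (log2 -0.11) and stood at 13.3 ± 5.15 CPM in nasal RPE/choroid against 775 ± 917 in its periphery. GRIA2, an AMPA receptor subunit, was called higher in nasal retina (92.3 ± 4.91 against 54.0 ± 8.96 CPM, log2 0.78), and RELN was not called (log2 -0.03). In RPE/choroid GRIA2 stood at 0.777 ± 0.257 CPM in nasal and 23.45 ± 28.1 in periphery. RELN stood there at 7.09 ± 3.09 and 198.5 ± 228.3 CPM, so the peripheral SD exceeded the mean for both genes.

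**Figure D5:**
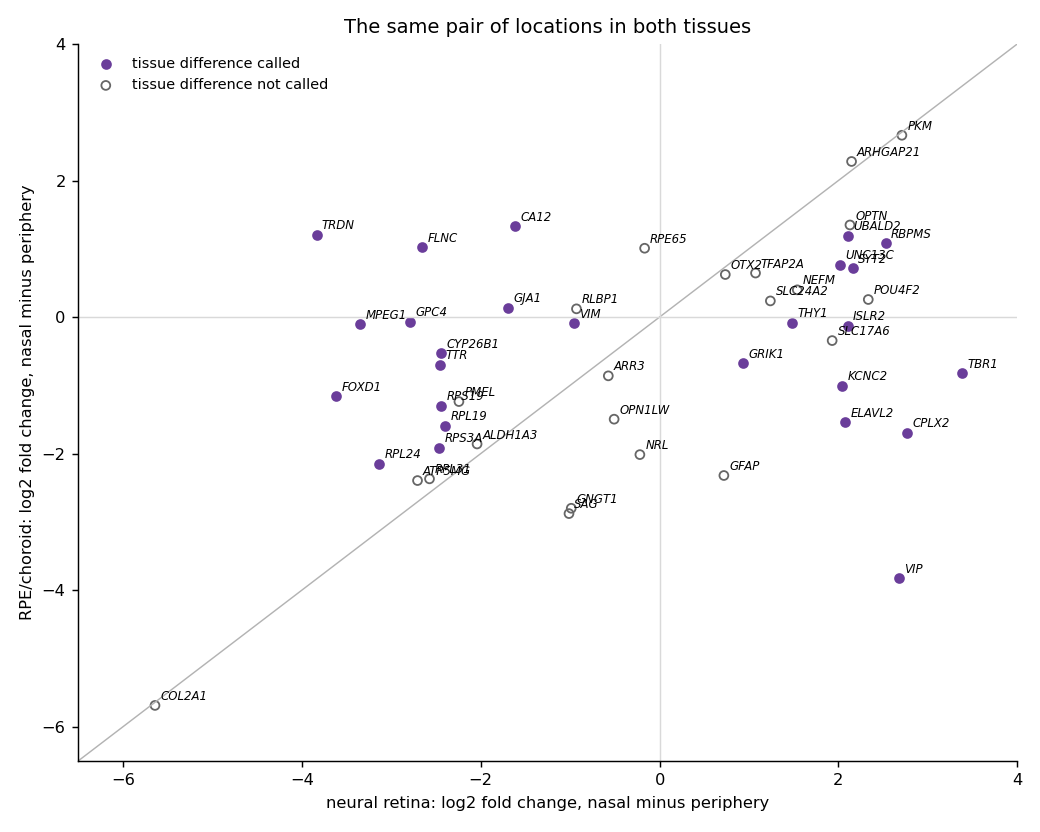
Each point is a gene named above, with its log2 fold change of nasal minus periphery in neural retina on the horizontal axis and in RPE/choroid on the vertical axis, and the diagonal marks equal change. Filled points had a called difference between tissues. COL2A1, PKM and ARHGAP21 lie on or near the diagonal, TRDN, FLNC and CA12 in the upper left quadrant, and TBR1, CPLX2, KCNC2 and ELAVL2 in the lower right. The changes of TBR1, CPLX2, KCNC2 and ELAVL2 in RPE/choroid were not called.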

How the data were processed

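Poly-A RNA was sequenced as paired reads from 32 libraries in 136 lane files. Per the labels and the study's methods, the authors quantified reads with Salmon 0.13 against Mmul_8.0.1 and imported them with tximport. The deposited column, named TPM, holds expected counts (length-scaled estimated counts): lane totals ranged from 7932259 to 39439054. Lanes were summed per library and rounded. Of 19422 identifiers, 14579 took their symbol from a gene name table. Where a symbol had several identifiers, the most abundant was used in the gene lists. The largest changes and interactions were ranked over all identifiers, each on its own.

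edgeR 4.0.16 (R 4.3.3) was fitted to the 16 retina libraries with TMM, filterByExpr at a minimum count of 10, quasi-likelihood F tests and the animal as covariate. RPE/choroid was fitted likewise, and the tissue difference over 32 libraries. SE is the absolute log2 fold change over the square root of F. The fits were tested on simulated data. DESeq2 1.42.0, other scaling, filters and left-out libraries were alternatives. The members and gene lists were chosen with earlier results of these data known. Named genes were the 12 largest called changes in each direction (mean of at least 3 log2 CPM with a prior count of 2, 1 direction in 4 eyes), list members, and the 5 largest interactions in each direction. Equal numbers mark eyes of 1 animal: deviations of nasal and periphery from their group means correlated by 0.41 to 0.68 within eyes and by 0.38 to 0.66 between fellow eyes of an animal. Some genes of the lists are counted but not reported by name here.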

Additional observations from a re-analysis of the deposited data

Results flagged for a closer look

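Sets of 4 libraries were examined by gene or marker sum with Dixon's test. Of 119 sets, 9 (7.56%) had a library whose gap to the nearest other exceeded the 95% limit. That limit is passed by about 1 in 20 sets of independent values. Each set here held fellow eyes of the same animals, so this rate need not hold. In the periphery, replicate 1 was low for TTR (315 CPM, the others 624 to 657) and replicate 4 was low for ATP5MG (47.9 CPM, the others 66.9 to 70.1). Replicate 2 was high for PMEL (36.3 CPM, the others 8.96 to 12.6), for TBX5 (3.77 CPM, the others up to 0.0485) and for GPC4, a glypican chosen after its values were seen (10.8 CPM, the others 7.25 to 7.57). Replicate 3 was high for PKM (175 CPM, the others 110 to 116) and replicate 4 for HMX1 (4.12 CPM, the others up to 0.967). In nasal, replicate 1 was high for RPE65 (193 CPM, the others 117 to 123) and replicate 4 for PMEL (4.88 CPM, the others 3.11 to 3.402).

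GFAP moved in opposite directions in the 2 animals, by 1.94 on the log2 scale in RM03 alone and by -0.94 in RM04 alone, and this difference between animals was not tested.

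The change from periphery to nasal differed between neural retina and RPE/choroid for 3215 genes by the interaction test, 31 of which are named here. The interaction (retina minus RPE/choroid, log2) was 4.49 for CPLX2, 4.27 for TBR1, 3.60 for ELAVL2, 3.005 for KCNC2, 2.12 for ISLR2, 1.55 for THY1, 1.43 for RBPMS, 1.43 for SYT2 and 1.21 for UNC13C. In RPE/choroid CPLX2, TBR1, ELAVL2 and KCNC2 had low levels: 0.13, 0.032, 0.42 and 0.84 CPM in nasal. Their peripheral levels there were 0.43, 0.065, 1.19 and 1.54 CPM, and none of these changes was called. The interaction of UNC13C was among the smaller ones. The interaction was also positive for VIP (6.11), ONECUT1 (2.76), GRIK1 (1.57) and UBALD2 (0.90). With the eye as replicate block, the interactions of VIP, ONECUT1 and GRIK1 were no longer called (adjusted p = 0.0507, 0.0546 and 0.0989). The 5 largest that passed the minimum mean level included PRX (5.26), GRIA2 (5.19) and RELN (4.17).

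Negative interactions were measured for TRDN (-5.05), FLNC (-3.70), MPEG1 (-3.26), CA12 (-2.97), CPAMD8 (-2.84) and GPC4 (-2.74). FOXD1 (-2.47) and CYP26B1 (-1.94) followed among patterning genes. The glial genes GJA1 (-1.86) and VIM (-0.89) and the RPE gene TTR (-1.78) had negative interactions too. Among ribosomal protein genes, the interaction was called for RPS19 at -1.17, RPL24 at -1.004, RPL19 at -0.83 and RPS3A at -0.57.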

How the results depend on the processing

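The 4198 values of 169 genes between nasal and peripheral retina under the alternatives kept direction and side of the threshold in 3988 cases; 164 lost the call, 42 gained it and 4 turned. The 4 were TBX5, which ranged from -3.21 to 4.02 (without replicate 2) when an eye was left out and was 4.28 without periphery replicate 2 and 4.05 in RM04 alone, and GFAP at -0.94 in RM04 alone. In RPE/choroid, CX3CR1, a microglia receptor, ranged from -0.52 to 0.60 (without replicate 2). Among 75 counts of the main comparison 6 moved by over 1.5 times. RM03 alone gave 4761 called genes, 2202 of them higher in nasal, and RM04 alone 4628, with 2412 higher in nasal and 2216 higher in periphery. Leaving out an eye or a library gave 5763 to 7308 called genes, 2466 (without replicate 1) to 3778 of them higher in nasal. Symbols with 1 identifier, an alternative chosen after seeing the data, gave 6459. With the eye as replicate block, where the paired eyes share an animal, 7309 genes were called, and among the genes examined in this comparison the block changed the calls of TREM2 and OLIG1. Beside the calls given above, and among the genes reported here, it ended the interaction calls of GRM6, PRKCA and C1QB, and made those of SOX9 and POU4F1.

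Nasal against perimacula depended most on the method. DESeq2 called 785 genes, 382 higher and 403 lower in nasal; no covariate gave 29, with 22 and 7; without a filter 104 were lower, and with the replicate block 42. Leaving out each eye gave 14 to 66 genes, 11 to 53 higher and 3 to 13 lower. For the tissue difference in the nasal-periphery change, leaving out each eye gave 1811 to 2527 genes, with 672 to 868 positive and 1132 to 1659 negative.

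Low counts limit FOXD1, PAX2, TBX5 and TBR1, whose lower group held few counts per library. The promoter motif count was not run. The cause of these shifts was not tested.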
